A study of Mus musculus with 6 samples.

Results

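The cholesterol efflux and lipid loading genes described here were Abca1, Abcg1, Apoe, Apoc2, Lpl, Pltp, Npc2, Soat1 and Pparg. They were chosen by name, as the rows of the deposited expression table whose gene symbol equals a member, and all 9 were found among 26110 listed genes. The rule uses no measured value, but the names were put forward with earlier results of these data known, so the shares given for the members are descriptions. The values come from bulk RNA-seq of MHCIIhi cells, in 6 libraries, that were sorted from the muscularis externa (ME), the muscle layer of the small bowel wall, of naive mice. 3 libraries were CX3CR1- and 3 were CX3CR1+ by title. Within a population the libraries are numbered as replicates 1, 2 and 3 by ascending library number in the titles. Both populations came from the same genotype, CX3CR1+/GFP, in which GFP replaces 1 allele of the receptor gene, so that the gate reads activity of that locus and any Cx3cr1 transcript comes from the remaining allele. The mice were untreated females on the C57BL/6 background, and their age is not given in the sources used here. The study pooled the ME of several mice per group, and whether each library had a pool of its own is not stated, so that a replicate is a library and the p-values measure the spread between libraries. The labels call the cells dendritic cells, whereas the study calls them macrophages. Both populations are named here by their gate.

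Macrophages take up cholesterol from lipoproteins and engulfed cells, release it in the lysosome, store the excess as esters in lipid droplets and export the rest to extracellular acceptors. When free cholesterol and its oxidised derivatives rise, the nuclear receptors LXRα and LXRβ switch on efflux and lipoprotein genes, and Abca1, Abcg1, Apoe, Apoc2, Lpl and Pltp are all established LXR target genes. Apoe is among the most highly expressed genes of many tissue macrophages.

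The members did not move as 1 block. Apoe, Abca1 and Npc2 were lower in CX3CR1- cells, Apoc2, Lpl and Pltp were higher, and Abcg1, Soat1 and Pparg passed the full criterion in neither direction. To be called, a gene had to reach a log2 fold change of 1 in size and an adjusted p no larger than 0.05, from limma on log2(normalized value + 1), adjusted by Benjamini-Hochberg over 17812 tested genes. Fold changes are given as CX3CR1- over CX3CR1+, so that positive log2 values stand for more RNA in CX3CR1- cells. All 9 members passed the filter for testing, a mean over the libraries of 10 or more. Of all tested genes, 12.2% were called higher, 8.15% lower and 20.4% in either direction, against 3, 3 and 6 of the 9 members. The values of the 2 populations did not overlap for 7 of the 9 members, against 40% of all tested genes. The median absolute log2 fold change was 1.16 over the members and 0.58 over all tested genes.

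**Figure D1:**
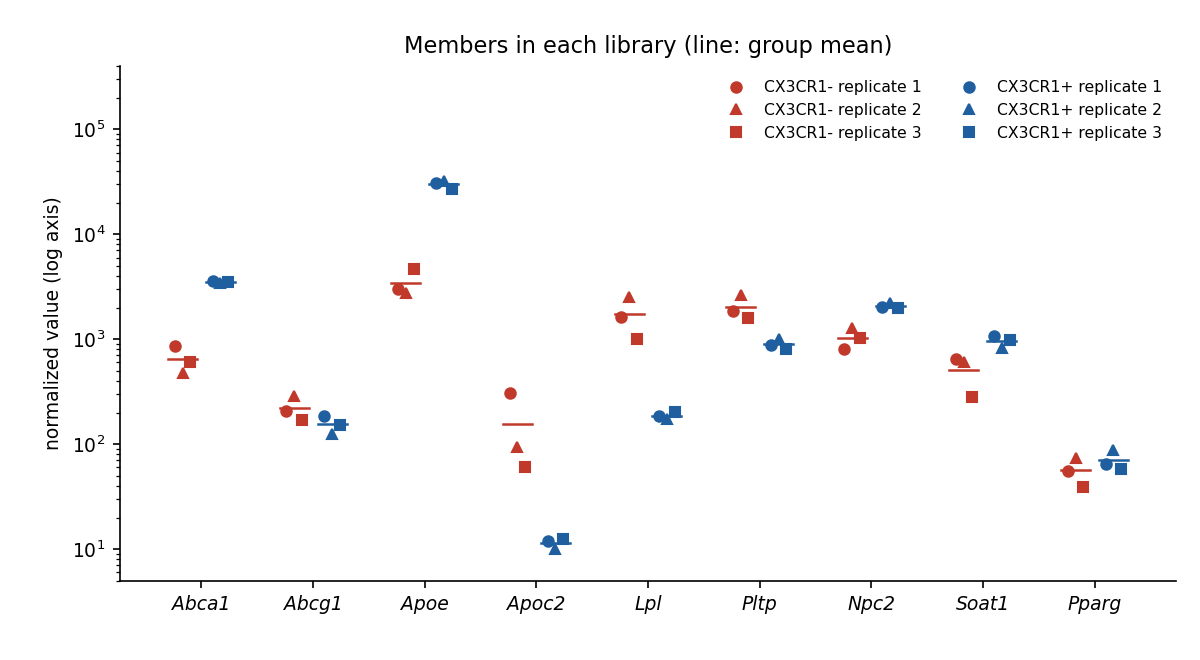
Normalized value (log axis) of each member in the 3 CX3CR1- (red) and 3 CX3CR1+ (blue) libraries, with symbols for the replicates and a line at the group mean. The populations overlap only for Abcg1 and Pparg, and the red points of Apoc2 and Lpl spread more widely than the blue points.

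Since libraries of sorted tissue cells can hold RNA of other cells, the marker lists are given before the members. The summed level of 8 macrophage markers lay between 5372 and 6563 in CX3CR1- and between 27885 and 31022 in CX3CR1+ libraries, and 8 of the 8 genes were called lower in CX3CR1- cells. Cx3cr1 itself was 18.9 to 28.5 against 347 to 380.4. The 8 conventional dendritic cell markers summed to 3780 to 4515 against 359 to 431, and 8 of 8 were called higher. The 9 enterocyte markers were called higher for 9 of 9 genes and summed to 17881 to 32952 in CX3CR1- and to 28.6 to 51.1 in CX3CR1+ libraries, where 2 of the 9 were at 0 in every library. Fibroblast markers summed to 3631 to 10934 against 165 to 278, with 5 of 5 called higher. The 4 B and plasma cell markers summed to 1358 to 3511 against 22.2 to 30.2, and 4 of 4 were called higher, while 1 of them was at 0 in every CX3CR1+ library. Of 5 smooth muscle markers none was called by limma, with 0 at an unadjusted p under 0.05, and the sums overlapped, at 752 to 2131 against 1627 to 2247. Of 6 listed adipocyte markers, Adipoq and Cfd were absent from the deposited values. The other 4 summed to 22.9 to 43.4 against 27.1 to 54.9, with 2 of them at 0 in every CX3CR1+ library. Only 1 of the 4 was tested, and it was not called. Endothelial markers were called higher for 3 of 5 genes, with sums of 739 to 948 against 345 to 611. Enteric glia markers were called higher for 3 of 4, with sums of 103 to 367 against 53.7 to 66.7. T cell markers summed to 87.4 to 167.6 against 61.3 to 127.3, and the 1 tested gene was not called. Eosinophil markers summed to 21.5 to 80.3 against 3.2 to 6.86, and the 1 tested gene was called higher. The part of these other cell types in the member values was not tested, and in bulk RNA a smaller number of cells of a type and less RNA per cell cannot be told apart.

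**Figure D2:**
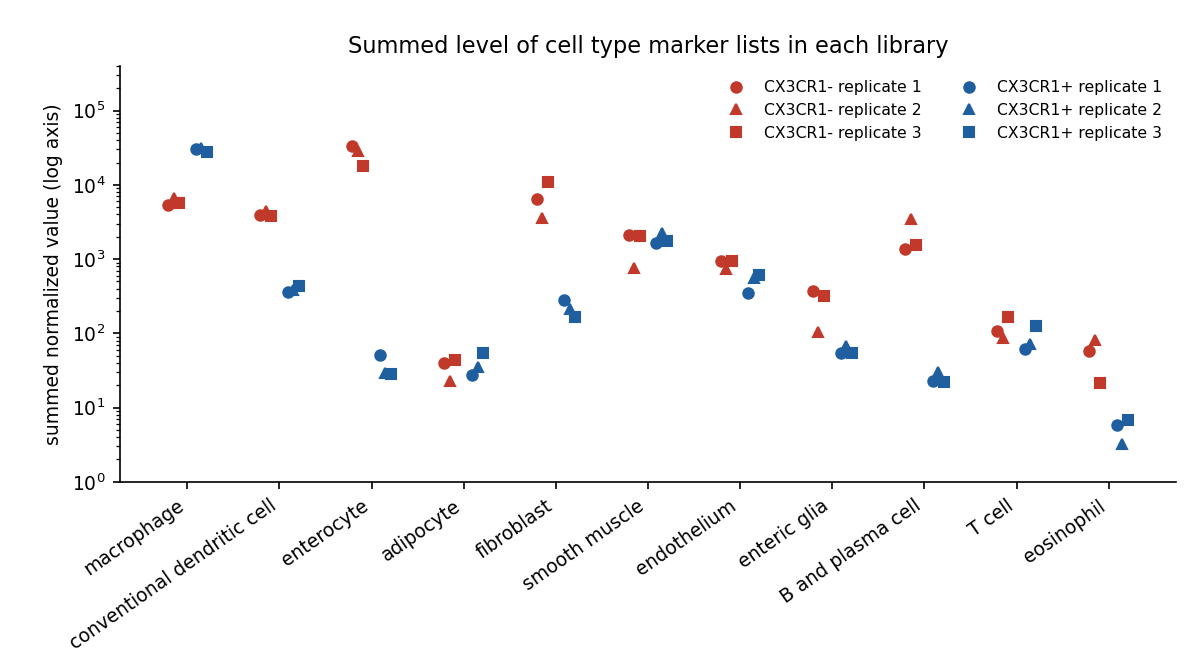
Summed normalized value (log axis) of each marker list in the 6 libraries, CX3CR1- in red and CX3CR1+ in blue. The macrophage sum is higher in all 3 CX3CR1+ libraries, the dendritic, enterocyte, fibroblast and B and plasma cell sums are higher in all 3 CX3CR1- libraries, and the smooth muscle, adipocyte and T cell sums overlap.

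The depth was about 5346379 to 17616748 assigned reads per library, estimated from the smallest step of the values, and the depths of the populations overlapped. A level of 3 reads corresponded to a normalized value of 1.39 to 5.36. Mitochondrial genes took 47.5 to 54.9% of the normalized total in CX3CR1- and 18.1 to 21.2% in CX3CR1+ libraries. On the second principal component, with 14.4% of the variance, CX3CR1- replicate 2 scored -94.7 against 41.7 and 54.1 for replicates 1 and 3 of that population, so it stood apart, and results that rest on it are given without it.

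To show the sequence around the starts of the members that were called and have a RefSeq promoter entry (GRCm38.p6), the 250 bases before the start are printed for Abca1, Apoe and Npc2, which were lower in CX3CR1- cells, and for Pltp and Apoc2, which were higher. All 5 genes lie on the minus strand, and the windows cover chr4:53159896-53160145 for Abca1, chr7:19699189-19699438 for Apoe, chr12:84773113-84773362 for Npc2, chr2:164857709-164857958 for Pltp and chr7:19677942-19678191 for Apoc2. Capitals mark matches on either strand to 4 spellings. The first was the GC box, GGGCGG. The second was an E-box, spelled CACGTG. The third was the TATA box, spelled TATAAA. The fourth was a spaced nuclear receptor repeat, GGTNANNNNNGGTCA, whose spelling was chosen with the Abca1 promoter known. No match overlapped another.
Abca1: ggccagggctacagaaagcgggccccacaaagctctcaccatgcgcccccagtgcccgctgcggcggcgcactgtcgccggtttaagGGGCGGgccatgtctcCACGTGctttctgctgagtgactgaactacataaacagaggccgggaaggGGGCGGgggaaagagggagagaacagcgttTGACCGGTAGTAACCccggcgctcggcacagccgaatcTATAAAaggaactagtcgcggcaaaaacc
Apoe: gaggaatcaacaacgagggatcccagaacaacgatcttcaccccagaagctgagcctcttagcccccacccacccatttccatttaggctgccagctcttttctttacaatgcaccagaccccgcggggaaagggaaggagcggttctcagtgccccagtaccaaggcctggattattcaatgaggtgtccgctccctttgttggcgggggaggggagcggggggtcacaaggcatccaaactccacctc
Npc2: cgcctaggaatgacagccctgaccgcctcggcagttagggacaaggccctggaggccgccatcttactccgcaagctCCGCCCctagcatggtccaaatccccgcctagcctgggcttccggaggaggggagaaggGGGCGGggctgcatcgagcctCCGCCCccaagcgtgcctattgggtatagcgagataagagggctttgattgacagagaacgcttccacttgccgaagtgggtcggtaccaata
Pltp: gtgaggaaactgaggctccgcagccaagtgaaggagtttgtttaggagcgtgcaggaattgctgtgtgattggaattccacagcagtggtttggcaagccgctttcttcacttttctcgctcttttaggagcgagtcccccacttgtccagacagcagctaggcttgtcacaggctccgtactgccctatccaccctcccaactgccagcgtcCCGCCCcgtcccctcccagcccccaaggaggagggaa
Apoc2: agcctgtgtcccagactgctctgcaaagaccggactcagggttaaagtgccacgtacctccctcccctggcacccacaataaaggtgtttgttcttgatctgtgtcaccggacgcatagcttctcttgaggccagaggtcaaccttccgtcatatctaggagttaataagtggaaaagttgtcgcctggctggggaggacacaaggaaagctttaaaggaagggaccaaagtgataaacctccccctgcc

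The Abca1 window held each of the 4 motifs, with GC boxes starting 163 and 97 bases before the start, an E-box 147, a TATA box 29 and the spaced repeat, on the reverse strand, 67 bases before it. Over 27025 promoter windows of the same length, 32.9% held a GC box, 6.05% an E-box, 13% a TATA box and 0.163% the spaced repeat. Npc2 had 3 GC boxes and Pltp had 1, while the Apoe and Apoc2 windows held none of the 4 spellings. Apoe has 3 starts in the promoter entries, and only the window of the first listed was searched. No motif was common to the 3 windows of members called lower, or to the 2 of members called higher. A match is a description of the letters only.

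Of the efflux transporters, Abca1 was lower in CX3CR1- cells and Abcg1 was not called. ABCA1 loads cholesterol and phospholipid onto lipid-poor apolipoproteins, and ABCG1 hands cholesterol to mature high density lipoprotein. Abca1 (chr4:53030787-53159895, minus strand, GRCm38) had normalized values of 868, 473 and 611 in CX3CR1- replicates 1, 2 and 3 and of 3568, 3395 and 3492 in CX3CR1+ replicates 1, 2 and 3. The populations were far apart, and the CX3CR1+ libraries lay close together. The means were 651 ± 201 (SD, n = 3) and 3485 ± 86.7 (SD, n = 3), 5.36-fold higher in CX3CR1+ cells. The log2 fold change was -2.46 with an SE of 0.21 and a limma adjusted p of 2.86e-05. Abca1 was called in all 17 alternative fits, with log2 fold changes of -2.69 to -2.05.

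Abcg1 (chr17:31057675-31117988, plus strand) had values of 208, 285 and 169.6 in CX3CR1- and 185, 126 and 152 in CX3CR1+ replicates. The groups overlapped, since CX3CR1- replicate 3 lay below CX3CR1+ replicate 1. The log2 fold change was 0.50 with an SE of 0.27 and a limma adjusted p of 0.214, and it stayed positive, at 0.30 to 0.67, in the 17 alternatives without a call. Within a library the Abca1 value was 4.18, 1.66 and 3.60 times the Abcg1 value in CX3CR1- replicates 1 to 3, and 19.3, 26.98 and 23.0 times in CX3CR1+ replicates. The ratio did not overlap between the populations, and the pair was chosen for description after its values were seen.

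Among the extracellular lipid carriers and enzymes, Apoe went the opposite way to Apoc2, Lpl and Pltp. APOE is the apolipoprotein by which macrophage lipid particles bind lipoprotein receptors. Apoe (chr7:19696109-19699188, minus strand) had values of 3004, 2747 and 4629 in CX3CR1- and of 30823, 32197 and 27005 in CX3CR1+ replicates 1, 2 and 3. The highest CX3CR1- library, replicate 3, remained far below the lowest CX3CR1+ library. The means were 3460.2 ± 1020.4 (SD, n = 3) and 30008 ± 2690.4 (SD, n = 3), an 8.67-fold difference, with a log2 fold change of -3.15, an SE of 0.19 and a limma adjusted p of 4.84e-06. By mean value, not corrected for transcript length, Apoe ranked 15 among all genes in CX3CR1+ and 129 in CX3CR1- cells, so it took up many reads in both. It was called in all 17 alternatives, at -3.39 to -2.98. The macrophage markers, at a median log2 fold change of -2.55 over 8 tested genes, moved in the same direction as Apoe and Abca1.

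APOC2 is the cofactor that lipoprotein lipase needs. Apoc2 (chr7:19671579-19677941, minus strand), which lies close to Apoe, had values of 310.2, 93.4 and 60.1 in CX3CR1- replicates 1, 2 and 3 and of 11.9, 10.01 and 12.6 in CX3CR1+ replicates. All CX3CR1- libraries lay above all CX3CR1+ libraries, but they differed among themselves more than those of any other member. The means were 155 ± 136 (SD, n = 3) and 11.5 ± 1.33 (SD, n = 3), 13.5-fold higher in CX3CR1- cells. The log2 fold change was 3.29 with an SE of 0.55 and a limma adjusted p of 0.0017. The added 1 in log2(value + 1) understates changes of genes this low, and the CX3CR1+ values rested on about 26, 12 and 9 reads.

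CX3CR1- replicate 1, which had the highest Apoc2 value, also had the highest summed enterocyte level of 32952. Replicate 3, with the lowest Apoc2 value, had the lowest enterocyte sum. Soat1, with lower values in CX3CR1- cells, and other listed genes had the same order of replicates. How many of all tested genes had it was not counted, and the part of enterocyte RNA was not tested. Without CX3CR1- replicate 1 the call of Apoc2 held, with a 6.69-fold difference of the means. Over the 17 alternatives its log2 fold change was 2.61 to 3.79. Of the 31-base stretches of Apoc2 transcripts in GENCODE M21, 78.8% also occur in transcripts of the overlapping gene Gm44805, so reads could be divided between them, and the Apoc2 level is uncertain to that extent. Within a library, the Apoe value was 9.69 to 77.0 times the Apoc2 value in CX3CR1- and 2147 to 3218 times in CX3CR1+ cells, a pair chosen after its values were seen.

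Lipoprotein lipase, encoded by Lpl, hydrolyses the triglycerides of circulating lipoproteins and is made by macrophages, adipocytes and muscle. Lpl (chr8:68880491-68907448, plus strand) had values of 1637, 2537 and 995 in CX3CR1- and of 186, 173 and 204 in CX3CR1+ replicates 1, 2 and 3. Replicate 2 was the highest and replicate 3 the lowest of the CX3CR1- libraries, and the lowest was still well above all CX3CR1+ libraries. The means were 1723 ± 774 (SD, n = 3) and 187 ± 15.6 (SD, n = 3), 9.20-fold higher in CX3CR1- cells. The log2 fold change was 3.10 with an SE of 0.30 and a limma adjusted p of 5.46e-05, and it was 2.77 to 3.44 in the 17 alternatives, with a call in each. The adipocyte marker sums, which lack Adipoq and Cfd, overlapped between the populations and were at most 54.9 in every library. Only 1 adipocyte marker was tested, and the part of adipocyte RNA in the Lpl values was not tested.

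PLTP moves phospholipid between lipoproteins and remodels high density lipoprotein. Pltp (chr2:164839518-164857711, minus strand) had values of 1852, 2633 and 1608 in CX3CR1- and of 879.6, 997 and 808 in CX3CR1+ replicates 1, 2 and 3. The groups did not overlap, and CX3CR1- replicate 2 was the highest, as it was for Lpl. The means were 2031 ± 535 (SD, n = 3) and 895 ± 95.2 (SD, n = 3), 2.27-fold higher in CX3CR1- cells, with a log2 fold change of 1.16, an SE of 0.20 and a limma adjusted p of 0.00224. The call did not hold without CX3CR1- replicate 2, where the log2 fold change was 0.95, below the threshold of 1. Of the 31-base stretches of Pltp transcripts, 13.9% are shared with the overlapping gene Ctsa, which itself moved the other way, at a log2 fold change of -1.94. CX3CR1- replicate 2, highest for Lpl and Pltp, also had the highest macrophage (6563), conventional dendritic cell (4515), B and plasma cell (3511) and eosinophil (80.3) sums of its population. It had the lowest sums of fibroblast, smooth muscle, endothelial, enteric glia, adipocyte and T cell markers.

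**Figure D3:**
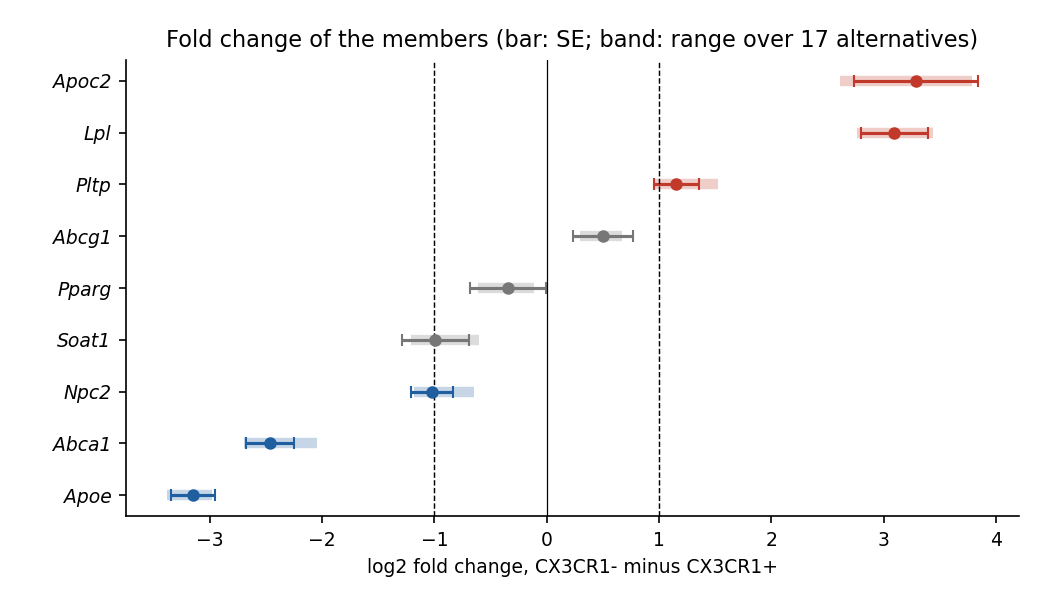
Log2 fold change (CX3CR1- minus CX3CR1+) of each member with its SE, a pale band for the range over the 17 alternative fits, and dashed lines at -1 and 1. Blue genes were called lower, red genes higher and grey genes neither; the bands of Pltp, Npc2 and Soat1 cross the fold threshold, and no band crosses 0.

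The intracellular members had log2 fold changes between -1.02 and -0.34. NPC2 is the soluble lysosomal protein that passes cholesterol to NPC1. Npc2 (chr12:84754562-84773152, minus strand) had values of 805, 1272 and 1037 in CX3CR1- and of 2039, 2204 and 1975 in CX3CR1+ replicates. The groups did not overlap, and each CX3CR1- library lay below the lowest CX3CR1+ library. The means were 1038 ± 234 (SD, n = 3) and 2073 ± 118 (SD, n = 3), 1.997-fold higher in CX3CR1+. The log2 fold change of -1.02, with an SE of 0.19 and a limma adjusted p of 0.00291, was just past the fold threshold. The adjusted p remained at or below 0.0355 in the 17 alternatives, but the fold fell short of the threshold under quantile normalization, at equal totals without mitochondrial genes, without CX3CR1- replicate 1 and without CX3CR1+ replicate 2.

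SOAT1 esterifies cholesterol in the endoplasmic reticulum for storage in droplets. Soat1 (chr1:156424525-156474331, minus strand) had values of 649, 605 and 280.4 in CX3CR1- and of 1072, 831 and 976 in CX3CR1+ replicates 1, 2 and 3. The groups did not overlap, though CX3CR1- replicate 3 was far below the other libraries of its population. The means were 512 ± 201 (SD, n = 3) and 959 ± 121 (SD, n = 3), 1.88-fold higher in CX3CR1+. The log2 fold change of -0.99, with an SE of 0.30, passed the adjusted p, at 0.0354 by limma, and just missed the fold. Of all tested genes 24.3% passed the adjusted p alone, against 7 of the 9 members. Soat1 was called lower without CX3CR1- replicate 1, at -1.21, without CX3CR1- replicate 2, at -1.16, and under precision weights, at -1.04. Without CX3CR1- replicate 3 its log2 fold change was -0.61, and over all 17 alternatives the adjusted p was 0.0223 to 0.124.

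PPARγ, the receptor encoded by Pparg, drives genes for fatty acid uptake and storage. Pparg (chr6:115360951-115490399, plus strand) had values of 55.8, 74.0 and 39.2 in CX3CR1- and of 65.4, 87.6 and 58.6 in CX3CR1+ replicates. The groups overlapped, and the log2 fold change was -0.34 with an SE of 0.34 and a limma adjusted p of 0.512. It was the member with the lowest mean in CX3CR1- cells, at 56.3 ± 17.4 (SD, n = 3).

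Levels of different genes can be compared only per length, and per kilobase of the longest coding transcript Apoe was the most abundant member in both populations. Its normalized level per kilobase was 2457 ± 725 (SD, n = 3) in CX3CR1- cells and reached 21313 ± 1911 (SD, n = 3) in the CX3CR1+ population. In CX3CR1- cells it was followed by Pltp (912.5 ± 241), Lpl (419 ± 188), Npc2 (315 ± 70.8) and Apoc2 (213 ± 187), then by Abca1 (63.4 ± 19.6), Soat1 (61.1 ± 24.1), Abcg1 (37.8 ± 10.1) and Pparg (26.5 ± 8.20). From Lpl down to Pparg the ranges of neighbours in this order overlapped, and those of Apoe, Pltp and Lpl did not. In CX3CR1+ cells the order after Apoe was Npc2 (628 ± 35.9), Pltp (402 ± 42.8), Abca1 (339.7 ± 8.45), Soat1 (115 ± 14.5) and Lpl (45.5 ± 3.79). There Pparg (33.2 ± 7.13) and Abcg1 (26.4 ± 5.05) were the only neighbours with overlapping ranges, and Apoc2 (15.8 ± 1.82) was the lowest. Each of these values is a mean normalized level per kilobase with its SD over 3 libraries, and another transcript length would move a gene in both orders.

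The spread between libraries was larger in CX3CR1- cells for 9 of the 9 members, measured as the SD of log2(value + 1), against 70.0% of all tested genes. In CX3CR1- cells the SD divided by the mean ran from 22.5% for Npc2 to 87.8% for Apoc2, and in CX3CR1+ cells from 2.49% for Abca1 to 21.5% for Pparg. The CX3CR1- libraries did not share 1 direction of deviation. Replicate 2 lay above its group's log2 mean for Abcg1, Lpl, Pltp, Npc2, Soat1 and Pparg and below it for Abca1, Apoe and Apoc2. Replicate 3 lay above it for Apoe, by 0.46, and furthest below it for Apoc2, by a log2 difference of -0.99.

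**Figure D4:**
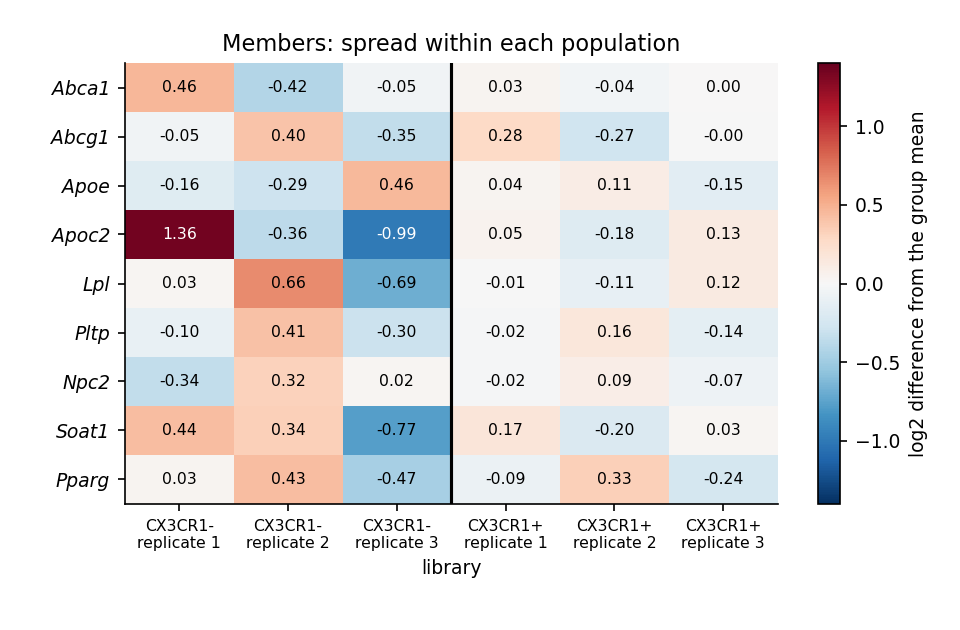
Difference of log2(value + 1) from the group mean for each member (rows) in each library (columns), red above and blue below the mean. The 3 CX3CR1- columns hold the strongest colours, from 1.36 to -0.99 for Apoc2, while the CX3CR1+ columns stay within 0.33 of 0.

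For 8 of the 9 members, the gene with the most similar profile was taken as the one with the smallest Euclidean distance over the 6 libraries between centred log2(value + 1) values, among 10199 genes with a mean of at least 50. For Abca1 this was Ltc4s, the leukotriene C4 synthase, at a distance of 0.252, and for Apoe it was Cd93, at 0.357. Apoc2 had no close neighbour, with Papss2 nearest at 0.964. Pltp was nearest to Sfxn3 (0.251), Npc2 to H2-M3 (0.173) and Soat1 to Mtus1 (0.209). Abcg1 was nearest to 2810474O19Rik (0.142) and Pparg to Ammecr1l (0.0762).

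In related lists of 94 genes, which do not include the members, 86 were tested, and 12 were called higher and 10 lower in CX3CR1- cells, against 12.2% and 8.15% of all tested genes. The median log2 fold change over the 86 was 0.39, and it was 0.00 over all tested genes. Of the 10 genes for LXR, RXR and LXR targets, 2 were called higher and 2 lower, with a median of 0.53. Arl4c, a small GTPase, was 242, 299.8 and 361 in CX3CR1- and 1652, 2940.4 and 2402 in CX3CR1+ replicates, with a log2 fold change of -2.93. Mylip, a ubiquitin ligase induced by LXRs, was also called lower, at -1.62 with an adjusted p of 0.00183 by limma. Scd2, a fatty acid desaturase, and Smpdl3a, a phosphodiesterase, were called higher at 2.54 and 2.22. LXR targets thus went both ways, among the members and outside them. The receptor genes themselves were not called. Nr1h3 (LXRα) was 14.1 to 27.2 against 5.96 to 7.78, with a log2 fold change of 1.33 and a limma adjusted p of 0.113, and it was called higher with no trend in the variance prior, at an adjusted p of 0.0259. Nr1h2 (LXRβ) had a log2 fold change of 0.24. Srebf1 was not called, at 1.24 with an adjusted p of 0.0995 by limma, but was called higher without CX3CR1- replicate 3, at 1.87.

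The list of sterol synthesis and its control had 24 tested genes of 25. 3 were called higher, which is 12.5% against 12.2% of all tested genes, and none lower by limma, with 0 lower at an unadjusted p under 0.05. The number called higher was 5 without CX3CR1- replicate 3, 6 at equal totals without mitochondrial genes and 6 by the adjusted p alone. Positive log2 fold changes were found for 19 of 24, against 49.8% of all tested genes, and the list median was 0.53. Stard4, a sterol carrier, was 283, 277 and 419 in CX3CR1- and 130.3, 107 and 96.4 in CX3CR1+ replicates, with a log2 fold change of 1.53. Hmgcs1, an early enzyme of the pathway, was 286, 292 and 269 against 107, 112 and 158, with a log2 fold change of 1.18. Both were called in the 17 alternatives, and neither overlapped between the populations. Srebf2, the master regulator of the pathway, had a log2 fold change of 0.65 with an adjusted p of 0.0254 by limma, so that it passed the adjusted p but not the fold.

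Of the 11 genes of lysosomal and ER cholesterol transport and ester hydrolysis, 1 was called, with a list median of 0.10. Without CX3CR1- replicate 2 there were 2 called lower and 1 higher, and without CX3CR1+ replicate 1 there were 2 called lower. The 1 gene called in the main fit, with no library left out, was Npc1, the membrane partner of NPC2. Npc1 was at 357, 368 and 266 in CX3CR1- and 1089, 1154 and 1022 in CX3CR1+ replicates. Its log2 fold change was -1.73 with a limma adjusted p of 0.000123, so that both Npc1 and Npc2 were called lower in CX3CR1- cells. Lipa, the lysosomal acid lipase, had a log2 fold change of -0.58 with an adjusted p of 0.0673. Nceh1, which hydrolyses stored esters, had one of -0.89 with an adjusted p of 0.146 and was called lower without CX3CR1- replicate 2, at -1.33.

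Uptake receptors and lipase partners had 10 tested genes of 11, with 2 called higher and 2 lower and a median of 0.55. Without CX3CR1- replicate 3 the number called higher was 4, with Lrp8 and Olr1 added, and under precision weights it was 1. Msr1, a scavenger receptor for modified lipoproteins, was 57.0, 101 and 246 in CX3CR1- and 1841, 2032 and 1822 in CX3CR1+ replicates, with a log2 fold change of -4.06. Cd36, the other scavenger receptor called lower, was 869, 1519 and 1003 against 2425, 2559.8 and 2224, at -1.13. Its fold fell short of the threshold under quantile normalization, at -0.74, at equal totals without mitochondrial genes, at -0.95, and without CX3CR1- replicate 1, at -0.96. Gpihbp1, the protein that anchors lipoprotein lipase on capillary endothelium, was 42.1, 24.1 and 16.7 in CX3CR1- and at or under the 3-read level in each CX3CR1+ library. Against that level, taken as the mean over the 3 CX3CR1+ libraries, it was at least 10.2-fold higher. Of the 5 endothelial markers 3 rose with it, Cdh5 among them at a log2 fold change of 4.26, and their part in it was not tested. Vldlr was called higher at 3.13 from 13.9, 36.1 and 119 against 2.48 to 5.07, near the 3-read level. Its log2 fold change ran from 2.35 to 3.85 with 1 library left out, and its call was lost under precision weights, at an adjusted p of 0.0627 by limma. Lrp1, a receptor for APOE, was abundant in both populations and not called, at 0.26. Angptl4, an inhibitor of lipoprotein lipase, was too low to test, at 6.88 to 19.2 against 0.762 to 2.59.

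Of the 14 lipid droplet and fatty acid genes, 4 were called higher and 2 lower, with a median of 0.72. Fabp4, a fatty acid carrier of adipocytes, macrophages and endothelium, was 361, 359 and 236 in CX3CR1- and 11.6, 4.72 and 2.38 in CX3CR1+ replicates. Its log2 fold change was 5.65, and 4.35 to 6.16 over the alternatives. The value of CX3CR1+ replicate 3 was under the 3-read level of that library, 4.25, so the size of the fold is uncertain. Cidec, a droplet fusion protein, was 146, 53.0 and 31.4 in CX3CR1- libraries and 0 in all 3 CX3CR1+ libraries, at least 28.4-fold higher against the mean 3-read level of the 3 libraries, and at least 15.6-fold without CX3CR1- replicate 1. Plin3, another droplet coat protein, and G0s2, a lipase inhibitor, were the other two called higher, at 2.28 and 3.24, and G0s2 lost its call under quantile normalization, under precision weights and without CX3CR1- replicate 3, CX3CR1+ replicate 2 or CX3CR1+ replicate 3. The order of Cidec over the CX3CR1- replicates was that of Apoc2 and of the enterocyte sum. Soat1, Srebf1, Gpihbp1, Fabp4 and Plin3 had this order as well, as did further genes of the related lists. The share of all tested genes with this order was not counted, and the part of enterocyte RNA in these values was not tested. The 2 called lower were Acsl1, which activates fatty acids, at -1.69, and Hilpda, a lipase inhibitor, at -1.06, and the call of Hilpda was lost at equal totals without mitochondrial genes, with no trend in the prior, and without CX3CR1- replicate 1, CX3CR1+ replicate 2 or CX3CR1+ replicate 3. Plin2, the coat protein that marks lipid droplets in macrophages, was 453, 624 and 403 against 598, 539 and 563, and at -0.22 with an adjusted p of 0.481 it was not called. Fabp5 had a log2 fold change of 1.01 with an adjusted p of 0.0592 by limma and was not called. It was called higher at equal totals without mitochondrial genes, at 1.18, and under precision weights, at 1.17.

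Oxysterols are ligands of the LXRs, and 2 of the 3 tested genes among 5 oxysterol enzymes were called lower in CX3CR1- cells, against 8.15% of all tested genes, with a list median of -1.79. That median is the value of Hsd3b7, which was at 0 in CX3CR1- replicate 1, overlapped between the populations and was not called. Ch25h, which makes 25-hydroxycholesterol, was 7.31, 1.79 and 11.97 in CX3CR1- and 147, 176 and 103 in CX3CR1+ replicates, with a log2 fold change of -4.38 and a limma adjusted p of 0.000332. In CX3CR1- replicate 2 this value is that of a single read. Cyp27a1, which makes 27-hydroxycholesterol, was 154, 135 and 206 against 352, 393 and 355, with a log2 fold change of -1.17. At equal totals without mitochondrial genes, whose share differed between the populations, Cyp27a1 came to -0.996 and the list had 1 call.

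**Figure D5:**
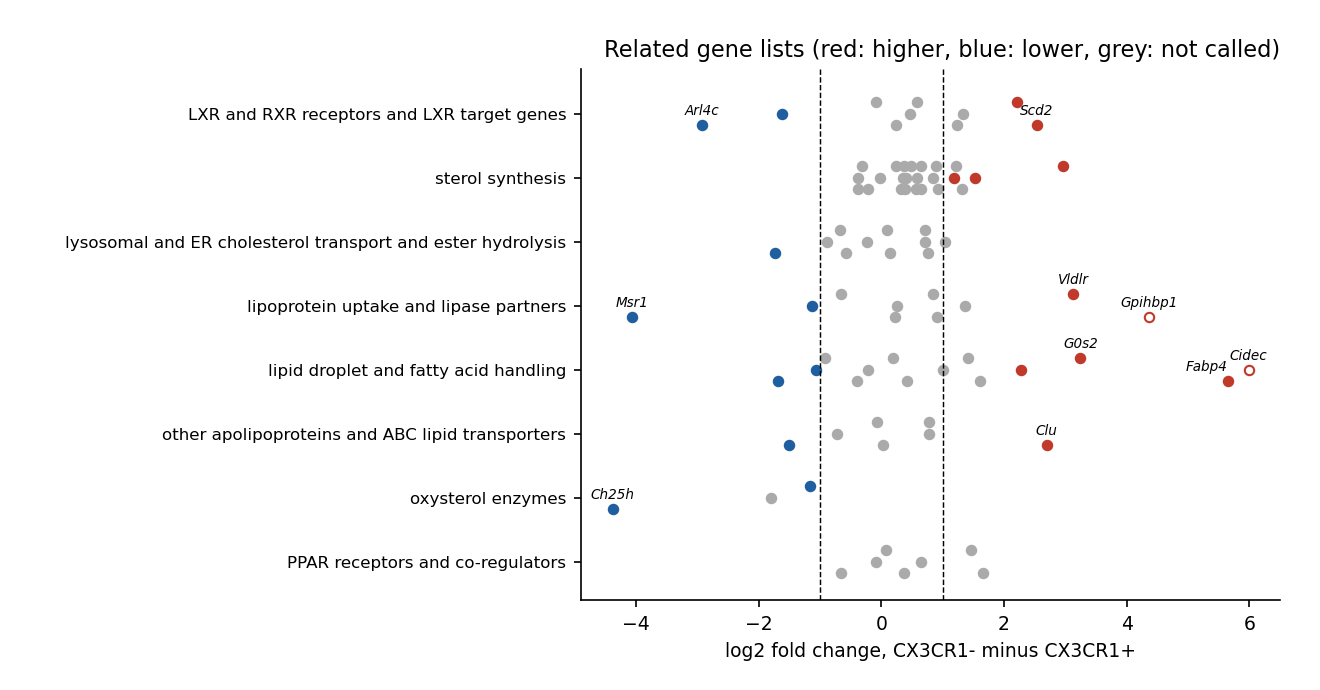
Log2 fold change (CX3CR1- minus CX3CR1+) of the 86 tested genes of the related lists, 1 point per gene, red where called higher, blue where called lower and grey otherwise, with dashed lines at -1 and 1. Open circles mark Gpihbp1 and Cidec, whose CX3CR1+ libraries are all at or under the 3-read level, so that their fitted value depends on the added 1; most points lie between the dashed lines, and the oxysterol points lie to the left of 0.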

How the data were processed

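RNA of sorted ME cells was sequenced as 75 bp single reads by the authors, who pseudoaligned them with Kallisto to the mouse transcriptome (mm10, GENCODE M16), summed estimated counts over each gene and scaled them between libraries with DESeq2. What was deposited is this normalized signal per gene, not read counts. Only 42.5 to 44.6% of values above 0 were whole multiples of a library's smallest step (tolerance 0.01 reads), so no count test was run. All 6 libraries were grouped by title, 3 per population. Genes with a mean of at least 10 were tested with limma 3.58.1 in R 4.3.3 (lmFit, eBayes with trend) on log2(value + 1), as a two-sided test adjusted by Benjamini-Hochberg. An exact permutation test cannot go below p = 0.1 with 3 libraries against 3, and that p was 0.1 for the 7 members whose groups did not overlap. On simulated data, 161 of 175 changed genes were recovered, with 2 false calls among 17806 genes. The simulation gave every gene the same dispersion in both populations, and all its changes were larger than the fold threshold. It therefore does not measure the error rate in these libraries, where the spread was larger in CX3CR1- cells for most genes. Symbols that occur more than once numbered 23.

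The members and lists were chosen with earlier results of these data known. Genes named beside the members are a list fixed by name, the 2 called genes per list and direction with the largest absolute log2 fold change, and the nearest profile per member. Some genes of these rules are not reported here. Hmgcs1, Lrp8, Olr1, Plin3, G0s2, Hsd3b7, Ctsa and Cdh5 were named after their values were seen. Positions, lengths and shared 31-mers came from GENCODE M21 (GRCm38) and promoters from RefSeq. Alternatives were pseudocounts of 0.5 and 10, no filter, a mean of at least 50, 3 other scalings, no trend, 2 weightings, each library left out in turn, a replicate block and the adjusted p alone. Plots were drawn with matplotlib 3.10.9.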

Additional observations from a re-analysis of the deposited data

How the results depend on the processing

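Over the 17 alternative fits, 8 of the 9 members kept the direction of their log2 fold change and their side of the adjusted p threshold. Soat1 kept its direction but missed the adjusted p in 6: quantile normalization gave -0.74, equal totals without mitochondrial genes gave -0.82, the prior without a trend gave -0.99, and the others left out a CX3CR1+ library. With 1 library left out, Soat1 ran from -1.21 to -0.61, and the cause was not tested. With 1 library left out, the number of members called ran from 2 to 3 higher and from 2 to 4 lower. Over all genes 2177 were called higher, and a mean of at least 50 left 1232 because fewer genes were tested, while leaving out 1 library gave 1693 to 2292 higher and 1005 to 1570 lower. The related lists then had 10 to 18 genes called higher and 9 to 11 lower. Over all genes the median log2 fold change moved to -0.15 under quantile normalization and to 0.16 at equal totals without mitochondrial genes, and no member changed direction under either.

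The populations share no replicate numbers in the titles. As a check, adjacent numbers were taken as a replicate block. Deviations of adjacent libraries correlated at 0.104, 0.038 and 0.014, and those of the other pairs at -0.083 to 0.040. With 3 libraries per population these values cannot show whether adjacent libraries were paired. The block left the members at 3 called higher and 3 lower. Depth limits Apoc2, Vldlr, Gpihbp1, Cidec, Angptl4, Fabp4, G0s2 and Clu, whose CX3CR1+ values lie near or under the level of a few reads in some or all libraries.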

Other observations

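Apolipoproteins and lipid transporters outside the members differed gene by gene. Of 7 tested genes among 10, Clu, an extracellular chaperone that is also called apolipoprotein J, was called higher in CX3CR1- cells, at a log2 fold change of 2.70 from 97.6, 23.0 and 26.5 against 8.55, 5.28 and 2.97. Its log2 fold change ran from 2.05 to 3.07 with 1 library left out, and its call was lost without CX3CR1+ replicate 3. Abca9, a transporter of the same subfamily as Abca1, was called lower, at -1.505 from 987, 1027 and 792 against 2871, 2573 and 2488, and the list median was 0.03. Apoc4, which lies in the same gene cluster as Apoe and Apoc2, had a log2 fold change of 0.03, with means of 66.1 ± 6.58 (SD, n = 3) and 64.6 ± 1.93 (SD, n = 3). Apoc1, another member of that cluster, was too low to test, with means of 1.82 and 3.07. The intestinal apolipoprotein genes Apoa1, Apoa4 and Apob, counted above among the enterocyte markers, were 959 to 1447, 311 to 827 and 710.1 to 1185 in CX3CR1- libraries, against 0 to 2.31, 0 and 0 to 1.32 in CX3CR1+ libraries.

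Of the 7 tested PPAR receptor and co-regulator genes, none was called by limma. None passed the adjusted p alone either, against 24.3% of all tested genes. At an unadjusted p under 0.05, 2 were higher and 1 was lower in CX3CR1- cells, and the share of all tested genes at that level was not counted. The list had a median of 0.36. Ppard had a log2 fold change of -0.67 with an adjusted p of 0.116. Ppargc1a, the coactivator of mitochondrial genes, had one of 1.46 with an adjusted p of 0.0568, and it was called higher in 5 of the 17 alternatives. It was named after its values were seen.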
